A study of Mus musculus with 24 samples.

Results

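Newly made RNA of mouse embryonic stem cells lacking Alkbh5 (KO) was compared with that of unmodified cells (WT) at the shortest labelling times of the series, 10 and 20 min. The 8 samples labelled KO or WT at 10 or 20 min, 2 for each genotype and time, were taken out of 24. The main quantity was the change from 10 to 20 min in KO minus the same change in WT, after each library was centred on its median gene, and KO was also set against WT at each time. All 8 samples are of E14TG2a, an established mouse embryonic stem cell line, and differ by the labels only in genotype and labelling time. All were grown in serum medium with LIF, the MEK inhibitor PD0325901 and the GSK3 inhibitor CHIR99021, and were given 1 mM 5-ethynyl uridine (EU). Every sample also received an equal amount of labelled RNA from Drosophila cells as a spike-in. The labels name 1 KO genotype and no clones, and do not tie the 2 samples of a group to separate cultures. The p-values of single genes, repeat families and repeat loci below therefore measure the spread between these samples, which may be technical.

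ALKBH5 is a nuclear enzyme that removes the methyl group from N6-methyladenosine (m6A), the most common internal modification of messenger RNA. The mark is written by the METTL3 and METTL14 complex while RNA is still being made and is read by proteins that alter splicing, export and decay. EU is taken up by cells and built into RNA during transcription, and click chemistry then allows the labelled RNA to be captured. After a few minutes of labelling the captured RNA is mostly unfinished and unspliced, and over longer pulses it holds a growing share of finished RNA. A transcript that decays within minutes gains less labelled RNA between 10 and 20 min than one that is kept.

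The 8 libraries held 3772163 to 13703147 reads in genes and 6037 to 23382 reads of the spike-in. Reads per spike-in read give the labelled RNA per amount of starting RNA. In WT the gene reads per spike-in read were 438 and 334 at 10 min and 741 and 681 at 20 min. In KO they were 571 and 704 at 10 min and 801 and 925 at 20 min. Both KO libraries lay above both WT libraries at each time, so the groups did not overlap.

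The mean in KO was 638 ± 94.3 (SD, n = 2) against 386 ± 74.2 (SD, n = 2) in WT at 10 min, a ratio of 1.66. At 20 min it was 863 ± 88.1 (SD, n = 2) against 711 ± 42.5 (SD, n = 2), a ratio of 1.21. Averaged over both times KO was higher by 0.50 on the log2 scale, with an exact permutation p of 0.0556 (two-sided, genotype permuted within time), the smallest the 8 samples can give. Labelled RNA grew 1.86-fold from 10 to 20 min in WT and 1.36-fold in KO. The difference between those log2 gains was -0.45, with an exact permutation p of 0.444. That permutation also shuffles the difference between KO and WT at each time, so its p does not measure the spread between libraries. With single libraries left out the difference ranged from -0.65 to -0.26. Repeat reads per spike-in read gave a difference of -0.40 in gain (exact permutation p = 0.5).

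**Figure D1:**
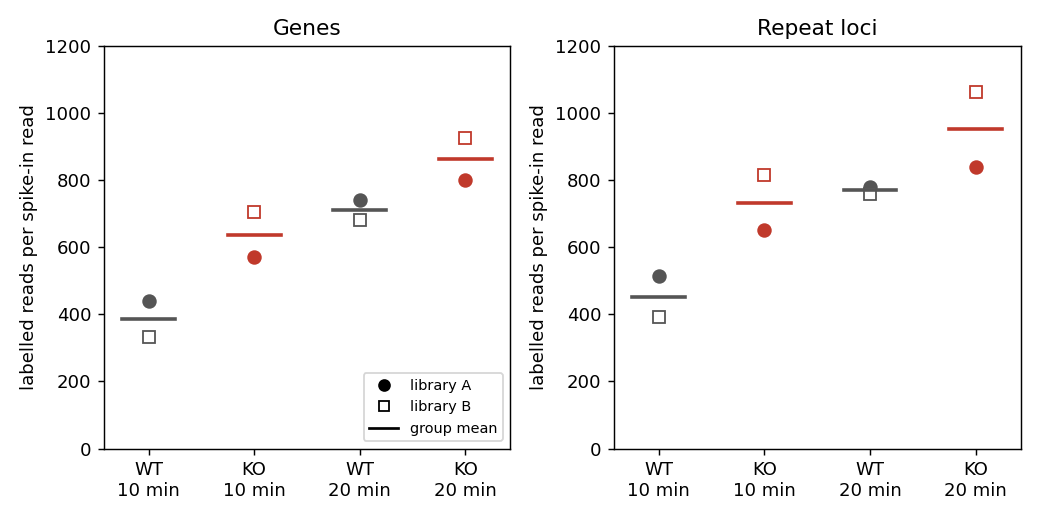
Gene reads (left) and repeat reads (right) per spike-in read (vertical axes, from 0) in each library, by genotype and labelling time (horizontal axes). Circles mark the library of a pair with more spike-in reads (A), open squares the one with fewer (B) and bars the group mean. KO lies above WT at both times, and the gene means go from 386 to 711 in WT and from 638 to 863 in KO.

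From here on, a level is the number of reads of a gene scaled to 11714 spike-in reads, and a relative level is log2(level + 1) minus the median of that library over 31118 genes. Relative levels show how a gene stands against the other genes of its library and leave out the difference in total labelled RNA. On the spike-in scale the median tested gene was higher in KO by 0.74 at 10 min and by 0.24 at 20 min (log2), against 0.02 and 0.06 after centring. Its gain from 10 to 20 min was lower in KO by a log2 difference of -0.50 on the spike-in scale, against 0.05 after centring. Differences below are relative to that shift unless the spike-in scale is named. The relative level is not per unit length, so it compares a gene between libraries and not genes with each other.

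Alkbh5 itself was measured first (ENSMUSG00000042650, chromosome 11). Its reads in the 2 libraries of each group were 1171 and 361 in WT at 10 min, 1420 and 784 in WT at 20 min, 1037 and 384 in KO at 10 min, and 966 and 340 in KO at 20 min. Its relative level was 4.99 and 4.70, then 4.87 and 4.71 in WT, against 4.57 and 4.37, then 4.35 and 4.13 in KO. Both KO libraries were below both WT libraries at each time. The difference of -0.37 ± 0.13 (log2, SE) at 10 min did not pass the test (limma, Benjamini-Hochberg adjusted p = 0.0806), and that of -0.55 ± 0.13 at 20 min did (adjusted p = 0.0102). The 10 min difference was 0.35 on the spike-in scale. Reads over the whole gene remain in all 4 KO libraries and say nothing of the deleted stretch, whose position is not given in the sources used here. Fto, the other m6A demethylase, was higher in KO by 0.44 ± 0.11 at 10 min (adjusted p = 0.0168) and by 0.51 ± 0.11 at 20 min (adjusted p = 0.00601). It lies on chromosome 8, whose genes were higher in KO as a group (below).

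Markers of other cell types were read in the same libraries, as sums of levels on the spike-in scale. Such sums hold the difference in total labelled RNA between KO and WT. All 10 stem cell markers had reads in all 8 libraries, with summed levels of 15945 to 35731 in WT and 24203 to 41749 in KO. Of 9 fibroblast markers 4 had reads in all 8 libraries and only 1, Lum, was at 0 in all 8. Their sums were 5773 to 12901 in WT and 7162 to 12770 in KO, and whether fibroblasts were present was not tested. Of 6 neural markers 5 had reads in all 8, with sums of 764 to 1525 in WT and 1988 to 2953 in KO. In bulk samples, fewer cells of a type and less RNA per cell of that type cannot be told apart. Extraembryonic endoderm, trophoblast and mesoderm markers summed to at most 165, 444 and 91.2 in any library. Mitochondrial genes took 2.19% and 2.21% of gene reads in WT at 10 min and 1.80% to 1.99% in the other 6 libraries.

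No gene passed the test for a difference between KO and WT in its change from 10 to 20 min. Of 19959 genes tested with limma 0 passed (0%), and the smallest adjusted p was 0.924. At an unadjusted p under 0.05 there were 950 genes, 4.76% of those tested. The difference in change ran from -0.76 at the 5th to 0.78 at the 95th percentile of genes (log2). Among the 7263 genes at a mean level of 200 or more that range was -0.26 to 0.34, with a median of 0.07. The median SE was 0.32 over all tested genes, 0.63 at levels of 10 to 50 and 0.13 at levels above 1000. In simulated libraries of the same depth 32% of genes with a 2-fold rise and 78% of those with a 4-fold rise were found. Of 2-fold and 4-fold falls 46% and 62% were found. The changed genes were drawn from all tested genes, so most 2-fold differences and some 4-fold ones could be missed at this depth.

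The authors' deposited table, which pools the libraries of a group, was read the same way. In the authors' deposited table the KO value at 20 min minus the WT value, each column centred on its median (0.417 and 0.923), had a median of 0.005 over 31118 genes. Its 5th to 95th percentile range was -2.30 to 2.15, and 24.6% of genes were beyond 2-fold, 3644 above and 4016 below. That share fell with the level, from 58.6% of genes with a mean level under 10 to 15.4% at 10 to 50, 0.753% at 50 to 200, 0.0538% at 200 to 1000, and 0 of 1721 genes above 1000. The wide tails of the deposited difference were thus made up largely of genes with few reads.

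**Figure D2:**
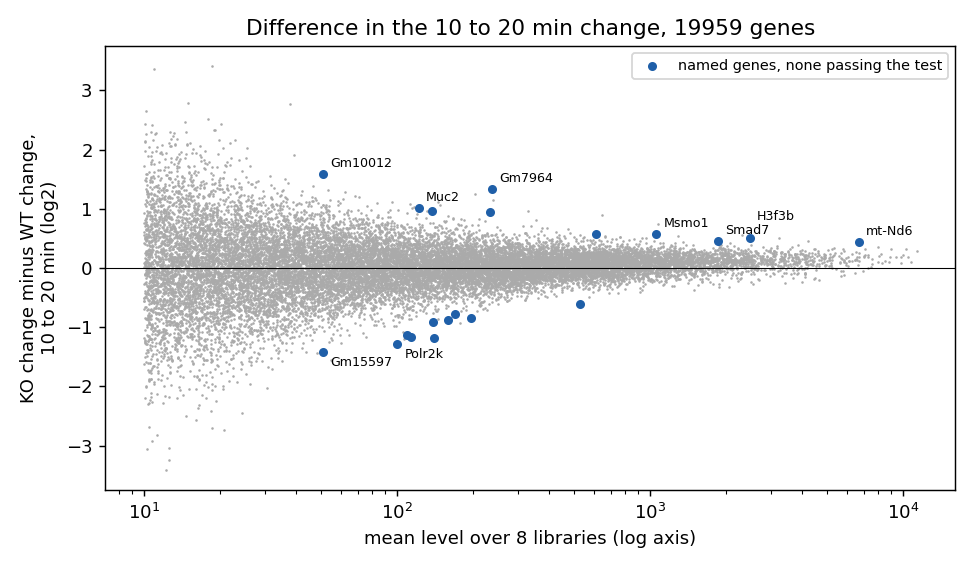
Change from 10 to 20 min in KO minus that in WT (log2, vertical axis) for each tested gene against its mean level over the 8 libraries (horizontal axis, log scale), with the named genes marked. The spread narrows as the level rises, to -0.26 to 0.34 at levels of at least 200, and none of the 19959 genes passed the test.

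The genes with the smallest unadjusted p among those at a mean level of 50 or more were read one by one, although none passed. On the rising side stood mt-Nd6, a subunit of respiratory complex I encoded by the mitochondrial genome (ENSMUSG00000064368). Its relative level was 8.23 and 8.32 at 10 min and 7.86 and 7.79 at 20 min in WT, and 7.87 and 7.88, then 7.79 and 7.94, in KO. The WT 10 min libraries were the high ones, and the other 6 overlapped. The change differed by 0.44 ± 0.10, and by -0.11 on the spike-in scale. H3f3b, which encodes the replacement histone H3.3, had 6.72 and 6.87, then 6.36 and 6.14, in WT against 6.58 and 6.53, then 6.56 and 6.46, in KO. Its change differed by 0.50 ± 0.13, and by -0.046 on the spike-in scale, and again the WT 10 min pair was highest.

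Smad7, an inhibitory SMAD of TGF-beta and Nodal signalling (ENSMUSG00000025880), had another pattern. It was at 6.39 and 6.45, then 6.47 and 6.59, in WT and at 5.37 and 5.30, then 5.89 and 5.89, in KO. All 4 KO libraries were below all 4 WT libraries, and the KO pair at 20 min lay between the KO pair at 10 min and WT. Its change differed by 0.45 ± 0.12 (-0.097 on the spike-in scale). Muc2, a gel-forming mucin, was at 1.76 and 1.87, then 2.23 and 2.13, in WT and at 1.30 and 1.32, then 2.65 and 2.72, in KO. KO was below WT at 10 min and above it at 20 min with no overlap, a difference in change of 1.01 ± 0.27. Msmo1, a methylsterol oxidase of cholesterol synthesis, went from 4.95 and 4.86 to 4.82 and 4.53 in WT and from 5.30 and 5.41 to 5.68 and 5.71 in KO, a difference of 0.57 ± 0.15. In the authors' pooled values on the spike-in scale the change of Msmo1 was 0.69 in WT and 0.71 in KO. That of Muc2 was 1.30 and 1.76. The other rising genes named by the rule were Hdgfl3 (0.97) and 4 predicted genes, Gm7964 (1.33), Gm10012 (1.58), Gm10222 (0.57) and Gm43667 (0.95). Predicted genes of this kind can share reads with near-identical copies, so their counts are uncertain.

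On the falling side the smallest p belonged to Polr2k, a small subunit shared by the nuclear RNA polymerases. It was at 1.49 and 1.55, then 1.97 and 1.90, in WT and at 2.24 and 2.45, then 1.83 and 1.12, in KO, a difference in change of -1.28 ± 0.33. Other falls named by the rule were Trmo (-1.17), a tRNA methyltransferase, Mrpl27 (-1.18), a mitochondrial ribosomal protein, Neu1 (-1.14), a lysosomal sialidase, and Slc19a1 (-0.78), a folate carrier. Tcf15, a transcription factor of early development, differed by -0.89 and Arhgap8 by -0.91. In Polr2k, Trmo, Mrpl27, Neu1 and Tcf15 one KO 20 min library, the one with fewer spike-in reads, was well below the other: 1.12 against 1.83, 1.68 against 2.22, 1.70 against 2.58, 1.19 against 2.14, and 2.21 against 2.69. The remaining falls were E330020D12Rik (-0.61), Gm13231 (-0.84) and Gm15597 (-1.42).

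Within WT alone 6 genes passed between 10 and 20 min, all lower at 20 min (0.0301% of those tested, with 2544 at an unadjusted p under 0.05), and 0 were higher. Without the mean-variance trend in the limma fit 0 passed (2006 at an unadjusted p under 0.05). None passed without the WT library with fewer spike-in reads at 10 min or without that at 20 min, and without the WT 10 min library with more 40 passed, 30 of them higher. The 6 were looked at after their values were seen. Hist3h2a, Hist1h2bg and Hist1h3d encode core histones whose messages end in a stem-loop without a poly(A) tail and turn over fast outside S phase. Hist3h2a fell from 2.25 and 2.10 to -0.12 and 0.18, a change of -2.15 ± 0.28 (adjusted p = 0.00572). Hist1h2bg fell from 3.70 and 3.87 to 2.74 and 2.54 (-1.15 ± 0.15) and Hist1h3d from 4.23 and 4.36 to 3.18 and 3.17 (-1.12 ± 0.14), both with an adjusted p of 0.00572. The pairs at 10 and 20 min did not overlap in any of these genes. H3f3b (-0.54 ± 0.09, adjusted p = 0.0378), Nup153 (-0.50 ± 0.08, adjusted p = 0.0378), a nuclear pore protein, and mt-Nd6 (-0.45 ± 0.07, adjusted p = 0.0322) made up the rest. Those 3 had spike-in scale changes of 0.38, 0.42 and 0.48, so their fall was relative to the median gene, which gained 0.93 on that scale.

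In KO the same 6 genes had changes of -1.32 for Hist3h2a, -0.36 for Hist1h2bg, -0.56 for Hist1h3d, -0.045 for H3f3b, -0.11 for Nup153 and -0.0097 for mt-Nd6, and none passed. Hist1h2bg in KO was at 3.04 and 3.20, then 2.80 and 2.72, so its 10 min pair was below that of WT and its 20 min pair overlapped with WT. Nup153 was at 6.33 and 6.35, then 5.88 and 5.80, in WT against 6.24 and 6.17, then 6.13 and 6.07, in KO. None of the 6 passed the test of the difference itself (adjusted p = 0.924), so a difference between genotypes is not shown. KO had 2 genes that passed, both higher at 20 min (0.01% of those tested, with 1712 at an unadjusted p under 0.05, and 0 without the trend, where 1462 had an unadjusted p under 0.05). They were Smad7 (0.56 ± 0.08, adjusted p = 0.0365) and Muc2 (1.37 ± 0.19, adjusted p = 0.0255), whose changes in WT were 0.11 and 0.37. Neither Smad7 nor Muc2 passed within KO when any single KO library was left out. They did not both pass when one or the other WT 10 min library was left out.

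Gene groups were then read by their change from 10 to 20 min, set beside all tested genes, whose median was 0.004 in WT and 0.04 in KO. Of 15 genes of the mitochondrial genome, which are transcribed by their own polymerase from long polycistronic RNAs, 8 were tested. The values here do not cover the rest. Those tested had a median change of -0.34 in WT, with 7 of 8 below 0. In KO the median was 0.07 with 2 of 8 below 0. The difference was above 0 in 8 of 8 (all genes, 56.2%) and had an unadjusted p under 0.05 in 4, with a median of 0.42, which was -0.12 on the spike-in scale. These 8 come from common precursors and are not separate evidence.

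Replication-dependent histone genes had a median change of -0.29 in WT (44 of 60 below 0) and -0.16 in KO (39 of 60). The difference was above 0 in 45 of 60, with a median of 0.22, and of -0.33 on the spike-in scale. The genes for SR splicing factors, many of which hold rapidly decaying isoforms, were at -0.11 in WT (13 of 15 below 0) and -0.03 in KO (8 of 15). For genes of ribosomal proteins, the protein parts of the ribosome, the medians were 0.13 in WT and 0.05 in KO, and 27 of 78 had a difference above 0, with a median of -0.083. BMP response genes, which SMAD1 and SMAD5 induce, had medians of 0.11 in WT and 0.42 in KO, and small nucleolar RNAs, which guide the modification of ribosomal RNA, of -0.07 and 0.14. Genes for the m6A machinery had a median difference of 0.10 (17 of 22 above 0) and naive pluripotency genes one of 0.11 (20 of 27). Scaled to the spike-in, the median difference of each of the 23 lists was below 0, from -0.63 for ribosomal proteins to -0.12 for the mitochondrial genes. No member of any list passed the test of the difference in change.

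Gene length was compared because a polymerase needs minutes to cross a long gene. The median difference in change was -0.005 for genes of 5 to 20 kb and 0.12 for genes over 200 kb. For genes under 5 kb the class median changed by -0.09 in WT and by 0.01 in KO, a difference of 0.10. Its exact permutation p of 0.0556 (two-sided, Benjamini-Hochberg adjusted 0.333 over 6 classes) is the smallest that 36 arrangements can give, so no class could pass the test. The other 5 classes had exact permutation p values of 0.389 to 0.944.

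**Figure D3:**
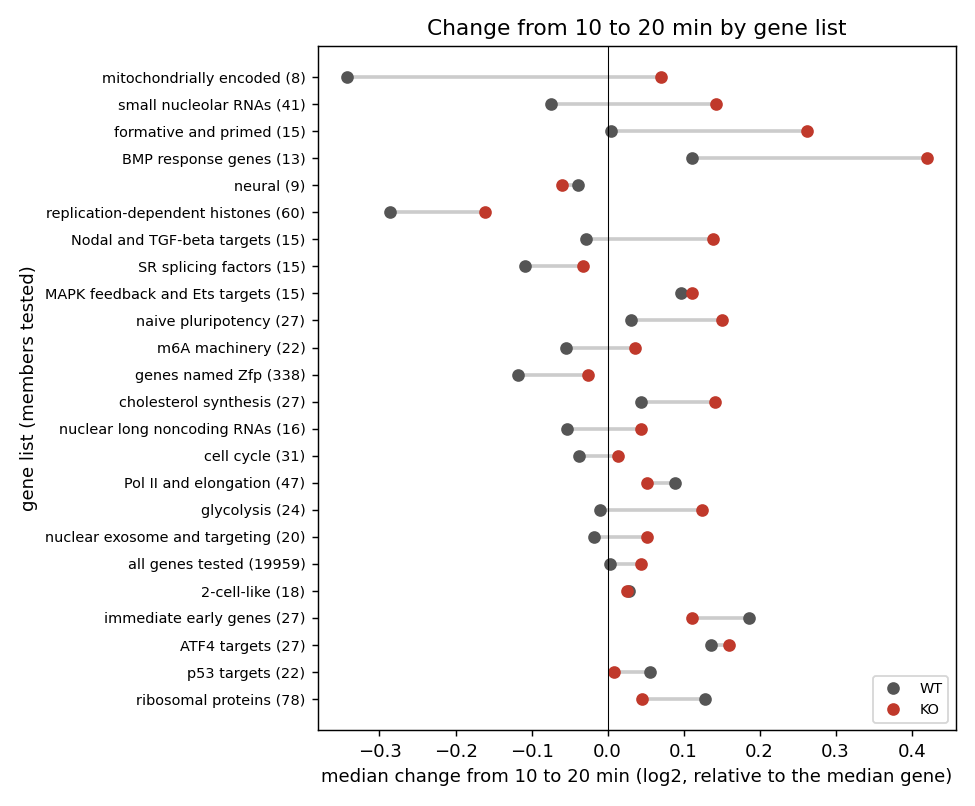
Median change from 10 to 20 min (log2, horizontal axis, relative to the median gene) of each gene list in WT and KO, with 1 row per list and the number of tested members beside its name. The mitochondrial genes (-0.34 in WT, 0.07 in KO) and the replication-dependent histones (-0.29 and -0.16) lie farthest to the left in WT, and the BMP response genes (0.11 and 0.42) lie farthest to the right in KO.

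At each labelling time on its own, KO differed from WT in many genes. At 10 min 950 genes were higher in KO (4.76% of those tested) and 730 lower (3.66%), in all 8.42%. At 20 min 1179 were higher (5.91%) and 575 lower (2.88%), in all 8.79%. Without the mean-variance trend in the limma fit 57 were higher and 97 lower at 10 min, and 23 and 54 at 20 min. Differences of over 2-fold were called in 149 higher and 245 lower genes at 10 min and in 135 and 219 at 20 min. Scaled to the spike-in instead, 11020 genes were higher and 108 lower at 10 min, and 538 and 139 at 20 min.

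The counts rest on 2 libraries a group. At 10 min 725 genes were called without the WT library with fewer spike-in reads, 890 without the KO library with more and 616 without the KO library with fewer. At 20 min the same figures were 733 without the WT library with fewer spike-in reads, 1158 without the KO library with more and 751 without the KO library with fewer.

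The 10 and 20 min comparisons share no library, but the libraries of both times were fitted together. Each gene therefore had the same SE at 10 and 20 min, for example 0.083 for Smad7 at both. A gene with a small spread between libraries is called more readily at both times, so the overlap of calls is not fully separate evidence. Of the genes higher at 10 min 644 were also called higher at 20 min, 67.8% of the 10 min list and 54.6% of the 20 min list. Of those lower 355 were called at both times, 48.6% of the 10 min list and 61.7% of the 20 min list. No gene was called in opposite directions. The sign at 20 min was the same as at 10 min for 936 of the 950 higher genes (98.5%) and 701 of the 730 lower ones (96.0%). Over all tested genes 57.2% were above 0 and 42.8% below 0 at 20 min.

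The genes higher in KO were not spread evenly over chromosomes. Chromosome 6 held 302 and chromosome 8 held 239 of the 950 at 10 min, together 56.9%, while 10.1% of tested genes lie there. Of the tested genes on those chromosomes 26.8% were called higher, against 2.28% elsewhere. At 20 min 592 of 1179 (50.2%) lay on them, 29.3% of their genes against 3.27% elsewhere. Only 22 of 730 lower genes at 10 min and 19 of 575 at 20 min did.

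The shift covered the chromosome's genes as a whole. The median relative level of the chromosome 6 genes was 1.85, 1.84, 1.88 and 1.82 in the 4 WT libraries and 2.22, 2.17, 2.24 and 2.26 in the 4 KO libraries. On chromosome 8 it was 2.09, 2.10, 2.23 and 2.12 in WT and 2.50, 2.43, 2.49 and 2.50 in KO. On neither chromosome did a KO library overlap with a WT one. The median gene was higher in KO by 0.43 and 0.48 on chromosome 6 and by 0.36 and 0.38 on chromosome 8, at 10 and 20 min. On chromosome 11 the medians were 0.05 and 0.04, yet 123 of its 1400 genes were higher and 35 lower at 10 min, and 141 and 30 at 20 min, so 8.79% and 10.1% were higher. The difference in change from 10 to 20 min was 0.06 on chromosome 6 and 0.03 on chromosome 8, near the 0.05 of all genes. The part of chromosomes 6 and 8 in the single-gene results below was not tested, and each gene that lies on one of them is marked as such.

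**Figure D4:**
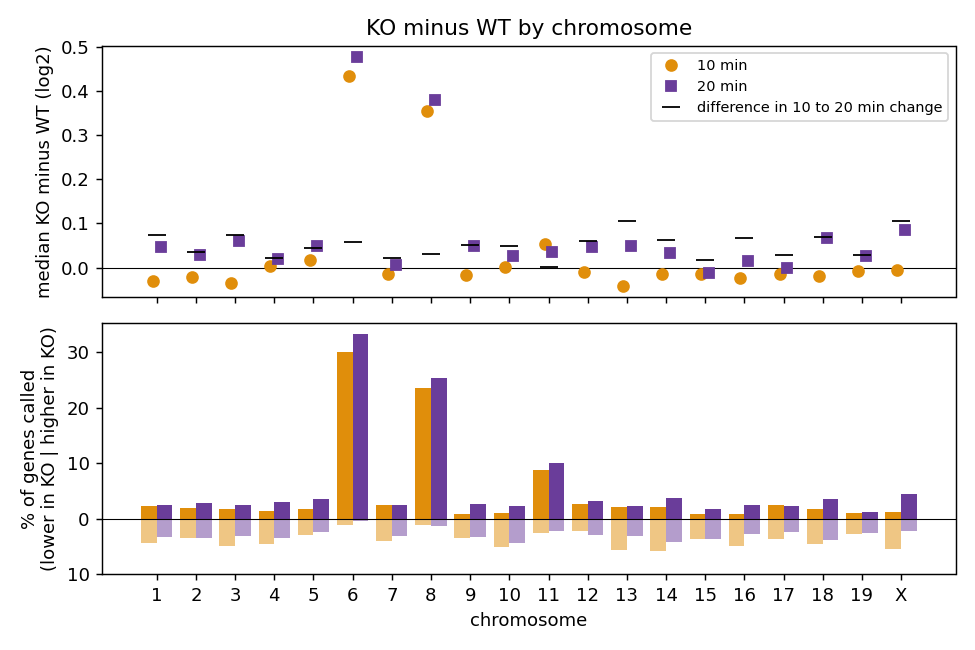
Median difference KO minus WT (log2, vertical axis) of the tested genes of each chromosome (horizontal axis) at 10 and 20 min in the upper panel, with dashes for the difference in the change from 10 to 20 min, and the percent of them called higher (upward bars) or lower (downward bars) in KO in the lower panel. Chromosomes 6 (0.43 and 0.48) and 8 (0.36 and 0.38) stand above the others at both times.

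Among the largest falls in KO at 10 min, Slc13a5, a citrate transporter, had relative levels of 4.08 and 4.25 at 10 min and 4.16 and 4.06 at 20 min in WT, and of 1.62 and 1.53, then 1.89 and 1.73, in KO. All 4 KO libraries were far below all 4 WT libraries, with log2 differences of -2.59 ± 0.15 at 10 min (adjusted p = 9.85e-08) and -2.30 ± 0.15 at 20 min (adjusted p = 2.18e-07). Dcdc2a, a doublecortin-domain protein of cilia and microtubules, was at 3.09, 2.98, 2.98 and 3.01 in WT and at 0.13, 0.22, 0.49 and -0.08 in KO, with log2 differences of -2.86 ± 0.23 and -2.79 ± 0.23. Nlrp4a, of a gene family expressed in oocytes and early embryos, was at 1.95 to 2.45 in WT and at -1.11 to -0.16 in KO, a difference of -3.15 ± 0.30 at 10 min. These were between 4.93-fold and 8.90-fold lower on the scale of level + 1.

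Other genes with falls of similar size at both times were Adgrg6, an adhesion G protein-coupled receptor, Myo18b, an unconventional myosin, and Slc5a1, a sodium-glucose transporter. They differed by -2.50, -2.46 and -2.20 at 10 min and by -2.19, -2.01 and -1.84 at 20 min. The noncoding genes Gm48914 and Gm46447, both on chromosome 14, were lower too, with differences of -2.60 and -2.50 at 10 min and of -2.77 and -2.79 at 20 min. Slc13a5, Dcdc2a, Nlrp4a, Adgrg6, Myo18b, Slc5a1 and both noncoding genes also passed at both times without the trend. Sntg1 and Platr15 had differences of -3.10 and -2.20 at 10 min and of -1.99 and -1.41 at 20 min, and without the trend they passed at 10 min only.

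The largest rises were in genes of low level in WT. Gap43, a growth cone protein of neurons, was at -0.26, -1.0, -0.67 and 0.05 in WT and at 1.91, 1.58, 2.00 and 1.95 in KO. The KO libraries were above the WT ones at both times, by 2.37 ± 0.33 (adjusted p = 0.000331) and 2.29 ± 0.33 (adjusted p = 0.00036). Foxn4, a forkhead factor of retinal and spinal progenitors, was higher by 2.39 at 10 min and by 1.43 at 20 min. Fbn2, a fibrillin of the extracellular matrix, Crmp1, a neuronal collapsin response mediator, and Ina, a neuronal intermediate filament, were higher by 1.93, 1.75 and 1.74 at 10 min and by 1.75, 1.84 and 1.43 at 20 min. Vax2, Zfp9 and Gm8038, with 1.66, 1.88 and 1.63 at 10 min, lie on chromosome 6. Gm16478 (1.83) passed at 10 min only, and its WT libraries ranged from -1.23 to 0.78. Without the trend Gap43, Foxn4, Ina, Vax2 and Zfp9 passed at 10 min only, and Fbn2, Crmp1, Gm8038 and Gm16478 at neither time.

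Among targets of Nodal signalling the secreted antagonists were higher in KO and the intracellular inhibitor Smad7 was lower. Nodal, a ligand of the TGF-beta family, acts through SMAD2 and SMAD3 and induces Lefty1 and Lefty2, its secreted antagonists. Lefty2 was at 3.72, 3.71, 3.68 and 3.52 in WT and at 5.05, 4.82, 5.15 and 5.05 in KO. Every KO library was above every WT library, by 1.22 ± 0.12 at 10 min (adjusted p = 1.55e-05) and 1.50 ± 0.12 at 20 min (adjusted p = 1.72e-06). Lefty1 was at 1.49, 1.65, 1.68 and 1.82 in WT and at 2.99, 2.82, 3.32 and 3.13 in KO, higher by 1.33 and 1.47.

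Smad7 was lower in KO, with a difference of -1.08 ± 0.08 at 10 min (adjusted p = 1.27e-06) and of -0.64 ± 0.08 at 20 min (adjusted p = 0.00014). Of 15 tested targets of this pathway 3 were higher and 1 lower at each time. Over all tested genes 8.42% were called at 10 min and 8.79% at 20 min, and the counts of this and the other lists stand beside those shares. Without the trend 3 were higher at both times and Smad7 was lower at 10 min only. Scaled to the spike-in, 12 were higher and 0 lower at 10 min, and 3 and 0 at 20 min.

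Several pluripotency genes were lower in KO relative to the median gene. Of 27 tested naive genes 8 were lower and 1 higher at 10 min, and 5 and 1 at 20 min, while on the spike-in scale 16 were higher and 0 lower at 10 min and 0 passed at 20 min. Tfcp2l1, a factor of the naive state, was at 7.40, 7.43, 7.37 and 7.29 in WT and at 6.82, 6.77, 6.90 and 6.88 in KO, without overlap. The difference was -0.62 ± 0.07 at 10 min and -0.44 ± 0.07 at 20 min, and on the spike-in scale it was 0.10 at 10 min. Klf4 (-0.53 and -0.43) and Sox2 (-0.50 and -0.39), both core reprogramming factors, were likewise lower at both times, and had spike-in scale differences of 0.19 and 0.22 at 10 min. Zfp42 (also Rex1), a naive marker on chromosome 8, was higher by 0.28 and 0.37. Without the trend 0 of the 27 passed at either time, Tfcp2l1, Klf4 and Sox2 included. The median over the list was -0.14 at 10 min and 0.02 at 20 min, against 0.02 and 0.06 over all genes.

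Of 15 tested genes of the formative and primed states, which cells pass through on leaving the naive state, 5 were lower and 1 higher at 10 min and 4 lower and 1 higher at 20 min. On the spike-in scale 5 were higher and 0 lower at 10 min, and 1 higher and 2 lower at 20 min. Dnmt3b, a de novo DNA methyltransferase, was at 4.16, 4.11, 4.17 and 4.12 in WT and at 2.83, 2.93, 3.25 and 3.03 in KO. All KO libraries were below all WT ones, with differences of -1.26 ± 0.13 (adjusted p = 2.64e-05) and -1.0 ± 0.13 (adjusted p = 0.000139). Its cofactor Dnmt3l (-1.13 and -1.34), the repressor Foxd3, needed for leaving the naive state (-1.17 and -0.83), and Otx2, a driver of the formative state (-0.81 and -0.44), were lower as well. Sox4 was the higher one, by 1.41 and 1.12. Without the trend Dnmt3b was lower at 10 min (adjusted p = 0.0332) and missed the threshold at 20 min (adjusted p = 0.0504), and no other member passed. The list's median was -0.69 and -0.39.

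A few embryonic stem cells at any time resemble the 2-cell embryo and switch on Zscan4 and other early genes, known as 2-cell-like genes. Of 18 tested 9 were higher and 1 lower at 10 min, and 9 and 0 at 20 min. The median difference was 0.81 and 0.90. Scaled to the spike-in, 15 and 9 were higher, and without the trend none passed at either time. Zscan4a, a member of the Zscan4 cluster on chromosome 7, was at 2.46 and 2.08, then 2.48 and 2.20, in WT and at 3.56 and 3.57, then 3.53 and 3.16, in KO. It was higher by 1.30 ± 0.18 (adjusted p = 0.000291) and 1.00 ± 0.18 (adjusted p = 0.00178), with no overlap between genotypes. Zscan4c differed by 1.08 and 0.88, Zscan4e by 0.79 and 0.77, and Usp17lb, a deubiquitinase of a multicopy family, by 1.25 and 1.43. Members of these families are near-identical, so reads may be split or shared between them and the members are not separate evidence.

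Of 9 tested neural genes, 4 were higher at 10 min and 5 at 20 min and 0 lower, with medians of 0.79 and 0.82. The counts were 6 and 5 on the spike-in scale, and 2 and 1 without the trend. Mir124a-1hg, the host transcript of a neuronal microRNA, was at 2.26, 2.10, 2.03 and 1.86 in WT and at 3.33, 3.34, 3.52 and 3.58 in KO. It was higher by 1.16 ± 0.16 (adjusted p = 0.000263) and 1.60 ± 0.16 (adjusted p = 2.02e-05), and no KO library overlapped with WT. Nes, an intermediate filament of neural progenitors, was higher by 0.79 and 0.82, as was Tubb3 on chromosome 8, a tubulin of neurons, by 1.03 and 0.96. The neural markers given above are members of this list, so their higher sum in KO is not separate evidence. Those sums are on the spike-in scale and hold the difference in total labelled RNA, which relative levels leave out.

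**Figure D5:**
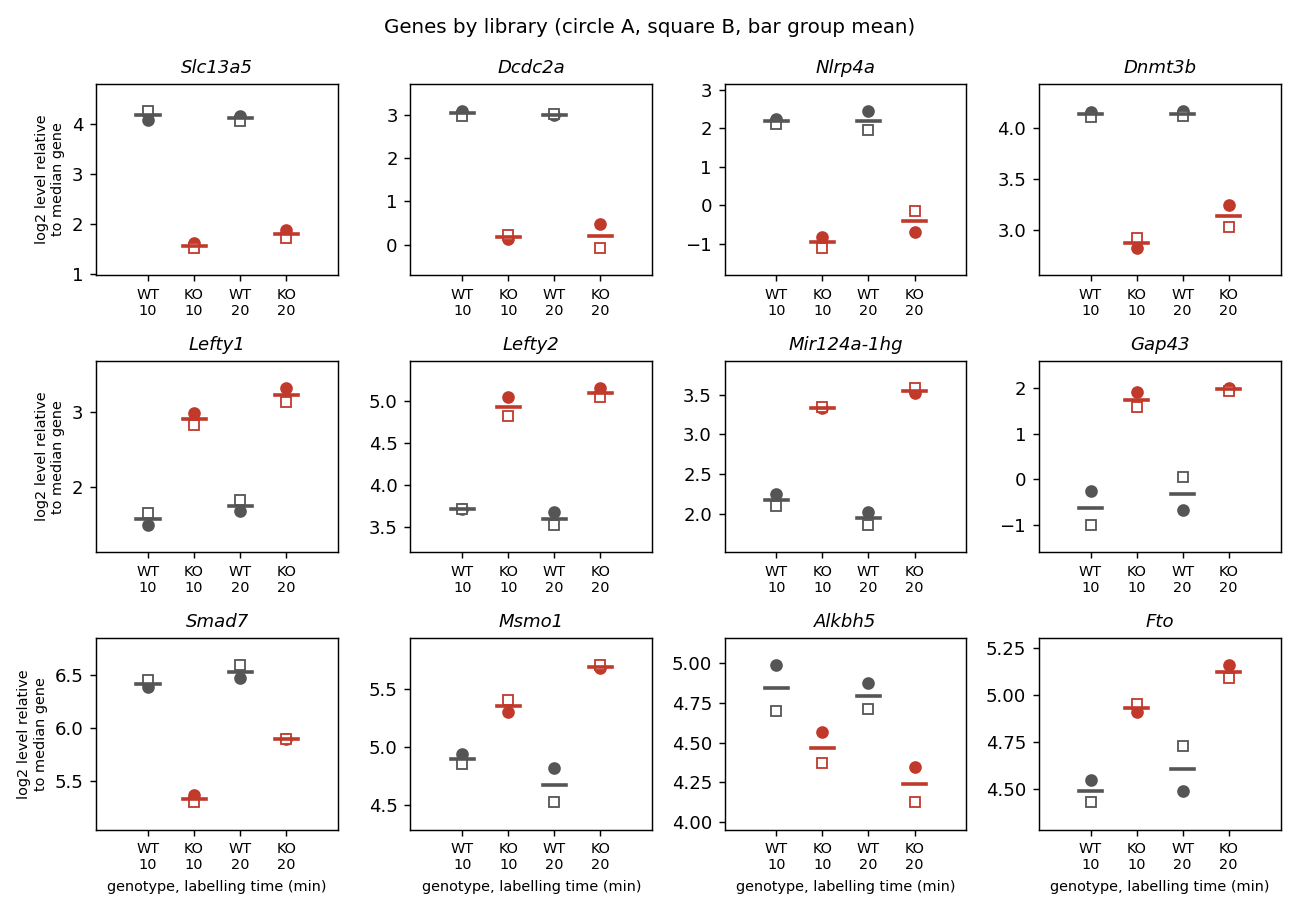
Relative level (log2 level + 1, minus the library's median gene, vertical axis) of selected genes in each of the 8 libraries, grouped by genotype and labelling time. Circles mark the library of a pair with more spike-in reads (A), squares the one with fewer (B) and bars the mean. WT and KO points do not overlap for Slc13a5, Lefty1, Lefty2 or Dnmt3b, and for Smad7 the KO points at 20 min (5.89 and 5.89) lie between those at 10 min and WT.

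ATF4 is the transcription factor of the amino acid response. Of 27 tested targets 6 were higher at 10 min and 7 at 20 min and 0 lower. Of those, 5 and 6 are on chromosome 6 or 8, which carry 7 of the 27. Mthfd2, a mitochondrial one-carbon enzyme, and Gars, the glycyl-tRNA synthetase, are on chromosome 6 and were higher by 0.99 and 0.60 at 10 min. Herpud1, Aars and Slc7a5 are on chromosome 8 and were higher by 1.11, 0.53 and 0.59. These compare with chromosome medians of 0.43 and 0.36. On the spike-in scale 23 were higher at 10 min and 3 at 20 min, and without the trend 1 and 0.

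Cholesterol synthesis genes were higher in KO in 3 of 27 members at 10 min and in 9 of 27 at 20 min, with 0 lower. The list's median was 0.24 and 0.34. Msmo1, on chromosome 8, was higher by 0.45 ± 0.11 (adjusted p = 0.0129) and 1.02 ± 0.11 (adjusted p = 2.59e-05). Idi1, an isoprenoid isomerase on chromosome 13, was higher by 0.65 at 10 min and by 0.67 at 20 min. The 20 min count was 4 without the WT library with fewer spike-in reads and 3 without the KO library with fewer, and the 10 min count was 0 without the KO library with fewer. The counts were 26 and 5 on the spike-in scale, and 0 at both times without the trend. Whether the growth in the count from 10 to 20 min is a change was addressed by the difference in change, which 0 of 27 members passed.

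Among 22 tested genes of the m6A machinery 2 were higher and 1 lower at 10 min (13.6%), and 3 higher and 2 lower at 20 min (22.7%), against 8.42% and 8.79% of all tested genes. Igf2bp3, an m6A reader on chromosome 6, was higher by 0.71 ± 0.09 and 0.67 ± 0.09, and Fto is given above. On the spike-in scale 20 were higher at 10 min and 1 at 20 min, and without the trend none passed at either time. Genes of RNA polymerase II and its elongation factors included 4 higher and 2 lower of 47 at 10 min (12.8%) and 2 and 0 at 20 min (4.26%). Aff4, the scaffold of the super elongation complex on chromosome 11, was higher by 0.47 ± 0.08 and 0.54 ± 0.08. Of 20 genes of the nuclear exosome and its targeting complexes 4 were higher at each time (20.0%) and 0 lower. Of those 4, 2 at 10 min and 1 at 20 min are on chromosome 6 or 8, which carry 2 of the 20. Among the others was C1d, an exosome cofactor on chromosome 11 (0.97 and 0.96). Of 31 cell cycle genes 2 were higher at 10 min, the replication helicase subunits Mcm2 (0.44, chromosome 6) and Mcm5 (0.42, chromosome 8), and 5 at 20 min (6.45% and 16.1%). Without the trend 0 of these 3 lists' members passed at either time.

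Immediate early genes and the MAPK feedback genes were both read because a MEK inhibitor was present. Of 27 immediate early genes 3 were higher and 1 lower at 10 min (14.8%) and 1 and 1 at 20 min (7.41%), with Klf6 higher by 0.76 and 0.95. Of the higher ones 2 at 10 min and 0 at 20 min are on chromosome 6 or 8, which carry 4 of the 27. Of 15 MAPK feedback genes 2 were higher and 1 lower at 10 min (20.0%) and 2 and 0 at 20 min (13.3%), with Spred2, an inhibitor of RAS signalling on chromosome 11, higher by 0.63 and 0.75. Of 22 p53 targets 1 was higher and 2 lower at 10 min (13.6%), and 0 and 4 at 20 min (18.2%). Of 60 replication-dependent histone genes 1 was higher and 5 lower at 10 min (10.0%), and 0 passed at 20 min. Without the trend 0 members of these 4 lists passed at either time. Hist1h2bg and Hist1h3d were lower in KO, with differences of -0.66 ± 0.15 (adjusted p = 0.0102) and -0.68 ± 0.14 (adjusted p = 0.00502) at 10 min, and differed by 0.12 and -0.12 at 20 min.

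No repeat family, counted over all its copies, passed a test between genotypes. Of 58 families tested, 0 (0%) passed for the change from 10 to 20 min, for 10 min and for 20 min, with 4, 4 and 10 at an unadjusted p under 0.05. The smallest adjusted p values were 0.440, 0.544 and 0.232. The difference in change was above 0 in 49 of 58 families with a median of 0.12. That median was -0.43 on the spike-in scale and -0.022 when each library was centred on its median family. The families share the centring of each library, so the 49 are not separate evidence. LINE-1 (L1) elements, the most abundant active retrotransposons of the mouse, made up 20.8% of repeat reads. Their relative level was 16.04 and 16.18, then 15.84 and 15.84, in WT and 16.01 and 16.09, then 15.87 and 16.14, in KO. The WT pairs at 10 and 20 min did not overlap, and one KO library at 20 min lay among the 10 min libraries. L1 was the one family that passed within WT, lower at 20 min with a change of -0.27 (adjusted p = 0.00453, 1.72% of families), and in KO its change was -0.04. The difference in change was 0.23 ± 0.09 (adjusted p = 0.440). The short elements B2 (14.0% of repeat reads) and B1, listed as Alu (11.6%), differed in change by 0.08 each.

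Single repeat loci gave more calls. Of 196035 loci tested 0 passed for the change from 10 to 20 min (8357 at an unadjusted p under 0.05). At 10 min 22 were higher in KO (0.0112%) and 230 lower (0.117%), and at 20 min 14 higher (0.00714%) and 89 lower (0.0454%), in all 0.129% and 0.0525%. Without 1 library the total at 10 min ranged from 62 to 3368 and that at 20 min from 18 to 350, against 252 and 103. Of the 252 loci called at 10 min 68 were also called at 20 min, and 250 had the same sign there. Endogenous retroviruses of the ERVK family, remnants of retroviral insertions, were 75 of the 230 lower loci (32.6%), while 6.44% of tested loci are ERVK. ERV1 elements were 32 of 230 (13.9%), against 1.32% of tested loci, and L1 elements 55 (23.9%), against 18.6%. Among the 22 higher loci 12 were L1 elements (54.5%). On chromosome 6, which holds 6.89% of tested loci, lay 7 of the 22 higher loci (31.8%) and 26 of the 230 lower ones (11.3%). Chromosome 4, with 6.70% of tested loci, held the most lower ones, 34 of 230 (14.8%) at 10 min and 13 of 89 (14.6%) at 20 min.

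The loci with the smallest p at 10 min are given by their GRCm39 positions as the files name them. The ERVK element at chr9:59277789-59282849 had levels of 676 and 501, then 1452 and 1469, in WT and of 206.5 and 201, then 339.6 and 336, in KO. Every KO library was below every WT library, with differences of -2.23 ± 0.17 and -2.28 ± 0.17. Neighbouring ERVK elements at chr1:9006744-9007141 and chr1:9010089-9011715 were lower, with differences of -2.59 and -2.84 at 10 min and of -2.16 and -2.24 at 20 min, and are not separate evidence. An ERV1 element at chr13:80850828-80853069 had differences of -2.60 and -2.03. In the other direction, a simple repeat at chr2:27656325-27656363 had levels of 0 and 0, then 1.30 and 2.05, in WT and of 56.7 and 83.4, then 119 and 147.5, in KO. Its WT libraries held almost no reads, so no fold is given. Whether these loci lie within genes was not analysed here.

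For the change from 10 to 20 min the loci with the smallest p, none of which passed, were a B4 element at chr8:71752751-71752929 and an ERVK element at chr12:51416992-51417493, with differences of 2.43 and 1.81. In the other direction stood a simple repeat at chr7:82421027-82421158 and an Alu (B1) element at chr11:115587929-115587993, with -3.54 and -2.80. The simple repeat had levels of 1.50 and 7.25, then 49.3 and 161, in WT and of 54.5 and 121, then 99.3 and 91.2, in KO. Its WT 10 min pair was low, and the other 6 libraries overlapped.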

How the data were processed

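EU-labelled RNA was sequenced by the submitters from 8 libraries used here, of 24, after click capture and SMARTer Stranded library preparation, per the labels' protocols. Per the submitters' processing notes, HISAT2, SAMtools and Picard were used with the build GRCm39. The sources used here do not give the read counter, its use of strand or the annotation, so overlapping and antisense genes are uncertain. Per the file headers and values, the authors deposited log2 ratios of a genotype at 20, 40 or 60 min to its 10 min value, spike-in scaled and pooled over replicates, for 56941 genes and 4929385 repeat loci. Whole reads of each library were recovered from these values. Because the deposited unit is log2, no count model was used.

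Levels are reads scaled to 11714 spike-in reads. Log2(level + 1) was centred on the median of 31118 genes with a nonzero value in all 9 deposited columns, for repeats too. Fold changes are on that scale and understate the change of low genes. Genes at a mean level of 10 or more, with reads in 4 or more libraries, were tested with limma 3.58.1 in R 4.3.3 (mean-variance trend, Benjamini-Hochberg adjustment, threshold 0.05). The 30 genes whose reads could not be split clearly between libraries were left out. Totals were tested by exact permutation over 36 arrangements. Fits and recovery were tested on simulated data, with 9 false calls among 19959 genes. Beside these stood 16 and 39 calls among 50 genes each raised 2-fold and 4-fold. Among 50 each lowered 2-fold and 4-fold there were 23 and 31. Symbols, chromosomes and lengths came from GENCODE M21, which matched 52000 of 56941 identifiers.

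The genes named for the change were the 10 rises and 10 falls with the smallest p at a mean level of 50 or more. Other named genes are the largest differences at 10 min and members of 23 lists. The samples, lists and named genes were chosen with earlier results of these data known. Reads counted in pairs were frequent (1292 genes with 1 read and 3157 with 2 in a WT 20 min library), so mates may have been counted separately, and no counting intervals are given. Alternatives were the spike-in scale, quantile normalization, other pseudocounts and filters, all 24 libraries, no trend and each library left out. A few members of these lists are not reported here.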

Additional observations from a re-analysis of the deposited data

How the results depend on the processing

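The number of genes that differed in their change from 10 to 20 min stayed at 0 under every alternative run except without the KO 10 min library with more spike-in reads, where 1 gene was higher (range without single libraries 0 to 1). The counts at 10 and 20 min moved more. Against 1680 and 1754, they were 11128 and 677 on the spike-in scale, 3084 and 2951 with all 24 libraries in the fit, 154 and 77 without the trend, and 657 and 608 without chromosomes 4, 6, 8, 11 and X (191 higher and 466 lower, 260 and 348), an alternative chosen after seeing the data. Without single libraries they ranged from 616 to 1724 and from 733 to 1859. The split into higher and lower genes moved with the scaling, to 1027 and 983 at 10 min and 936 and 895 at 20 min with quantile normalization, to 1015 and 971, and 1134 and 726, when centred on the median tested gene, and to 1464 and 514, and 1275 and 572, with a pseudocount of 5. Within WT, where 6 genes passed, the count was 14822 on the spike-in scale, 58 with quantile normalization, 29 with a pseudocount of 0.5, 230 with one of 5, 17 without the filter on low levels, 582 with all 24 libraries, 115 centred on the median tested gene, 0 without the trend and 0 to 40 without single libraries (30 of the 40 higher). Within KO, where 2 passed, it was 50 on the spike-in scale, 1 with quantile normalization, 50 with all 24 libraries, 1 centred on the median tested gene, 0 without the trend and 0 to 3 without single libraries. The within-genotype alternatives were chosen after seeing the data. The difference in gain of the totals ranged from -0.65 to -0.26 for genes and from -0.60 to -0.21 for repeats without single libraries. For the change, repeat families had 0 to 3 calls and loci 0 to 15 without single libraries. Directions turned on the spike-in scale for the change of mt-Nd6 (-0.11), H3f3b (-0.046), Smad7 (-0.097), Nup153 (-0.15) and Fto (-0.47), for KO minus WT at 10 min of Tfcp2l1 (0.10), Klf4 (0.19), Sox2 (0.22) and Alkbh5 (0.35), and for the WT change of H3f3b (0.38), Nup153 (0.42) and mt-Nd6 (0.48). Fto's change also turned with quantile normalization (-0.013), a pseudocount of 5 (-0.018) and without the WT 20 min library with more spike-in reads (-0.045). The cause of these moves was not tested. No paired analysis was possible because the replicate numbers could not be tied to the recovered libraries. With 2 libraries a group and a median SE of 0.32 for the change, 2-fold differences were often below what could be detected, and some 4-fold ones were too.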
